A study of Bos taurus with 64 samples.

Results

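Solute carriers (SLC) are membrane proteins that move ions, amino acids, monocarboxylates, fatty acids, nucleotides and metals across the cell membrane and the membranes of the organelles. Some couple the passage of a solute to the sodium gradient, others exchange a solute for another, and those of the SLC25 family sit in the inner mitochondrial membrane and pass metabolites and nucleotides between the cytosol and the matrix. In skeletal muscle they are known for letting lactate out of and into fibres, for fatty acid uptake, for calcium extrusion and for the exchange of ADP and ATP with mitochondria.

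The array held 45 SLC genes, with 49 probes, of 5449 named transcripts and probe sets in all. They were chosen by name, as all probes other than controls that the array files name SLC followed by a family number or SLCO, leaving out SLC16A6, SLC25A25 and the glucose transporters of the SLC2A family. Expression was measured on 64 single-colour Agilent arrays of longissimus thoracis (LT, which supports the body) and semitendinosus (ST, a hindlimb muscle of locomotion) of 32 Normand cull cows about 4.5 years old. All cows received a straw and concentrate diet enriched in lipids from linseed and rapeseed for 101 days, without (control diet, labelled as the lipid-rich diet) or with vitamin E and plant extracts rich in polyphenols (EP diet, labelled Lipid VitE PERP). The 16 stressed cows (labelled Moderated stress) were isolated during transport and led through a labyrinth for 30 minutes, and the other 16 cows were handled with limited stress, with 8 cows per diet in each group. Muscle was taken within 15 minutes after slaughter, so a single time was sampled.

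All 6 skeletal muscle markers on the array (ACTA1, CKM, DES, MB, MYH1 and MYH7) were well above background on every array of both muscles, while of the blood markers HBB was so on 13 LT and 7 ST arrays, ALAS2 on 2 and 0, and SLC4A1, the anion exchanger of red cells, on none. The 75th percentile of signal ranged from 2470 to 4202 intensity units, between 71.4% and 80.9% of the spots were read well above background, and at most 1 spot was saturated. The arrays lay on 9 slides scanned on 5 days. Every slide held cows of both stress groups, but mostly in unequal numbers. A slide of ST held 1 stressed and 3 limited stress cows, and another held 6 and 1. The differences within slides given below can therefore rest on single cows, and they were not adjusted for diet. LT and ST arrays lay on separate slides scanned on separate days. Stressed cow321, on the control diet, stood apart in both muscles: over all probes it was the lowest of the 32 cows for 18.5% in LT and 19.6% in ST, and the highest for 13.3% and 12.4%. Its 75th percentile (3459 units in LT, 3775 in ST) lay within the range of the other arrays, and results that rest on it are given with and without it below.

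Of the 45 SLC genes, 29 passed the filter in LT (a probe well above background on 11 or more of the 32 arrays) and were tested there, 26 were tested in ST, and 21 were well above background on every array of both muscles. Of the 8 mitochondrial carriers 7 were tested in both muscles, and of the 5 carriers of nucleosides, nucleotide sugars and sugar phosphates all 5 were tested in LT and 4 in ST. Of the 17 genes grouped as monocarboxylate, sodium-coupled solute and fatty acid carriers, 9 were tested in both muscles, and none of the 6 SLC5 genes was among them. The 6 amino acid carriers gave 3 tested genes in each muscle, and the 5 ion exchangers gave 2 in LT and 1 in ST. The 1 metal carrier, SLC31A2, was tested in both muscles, and of the 3 carriers of organic ions, peptides and vitamins 2 were tested in LT and 1 in ST. The genes tested in neither muscle were SLC4A1, SLC4A10, SLC5A4, SLC5A5, SLC5A9, SLC5A10, SLC5A11, SLC5A12, SLC6A7, SLC6A17, SLC8A1, SLC14A1, SLC16A4, SLC25A27, SLC27A2 and SLC38A4. SLC25A27 is an uncoupling protein best known from brain, SLC5A5 the iodide carrier of the thyroid and SLC14A1 a urea transporter.

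**Figure D1:**
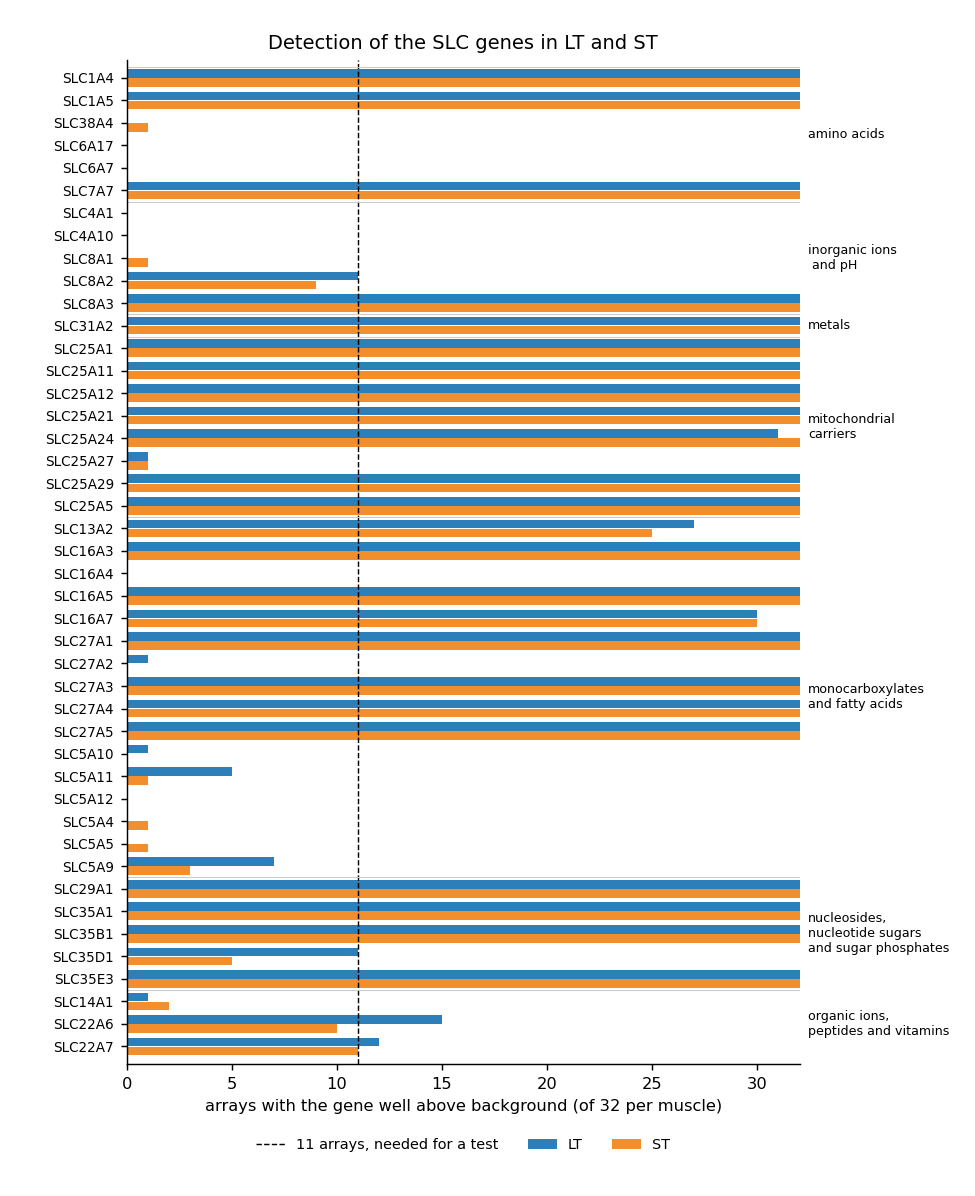
Number of arrays (of 32 per muscle, x axis) on which the best probe of each SLC gene was well above background, with a pair of bars (LT and ST) for each SLC gene reported here. The bars fall into genes seen on 30 to 32 arrays, genes seen on almost none, and a few between, such as SLC22A6, which was above background on 15 LT and 10 ST arrays.

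Being below background held for the probes and not always for the gene. The array also carries custom sets of 5 probes, 19 of which could be tied to an SLC gene by a stretch of 25 or more bases in common with its named probe. The named probe of SLC5A10 was above background on 1 LT and 0 ST arrays, whereas 4 of the 5 probes of its custom set passed the filter in LT and 3 in ST. A probe of the SLC6A17 set was above background on all 32 arrays of each muscle, where the named probe was above it on 0. The custom set of SLC5A5 had 1 probe that passed, in LT. Whether these probes read the same transcript as the named probe was not tested.

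The sequences of the probes behind the largest differences between the muscles, for SLC8A3, SLC16A7 and SLC16A3, are given here, because the first 2 genes were each read by 2 probes whose behaviour is compared further on. All are 60-base probes of the array design, placed on the minus strand of the genome build HGSC Btau_3.1, and no base is singled out. The files give no exon or intron annotation for them. The probe of SLC16A3 spans 337 genomic bases, more than its own length, so it joins separate stretches of the genome.
SLC8A3, first probe, chr10:84176918-84176977: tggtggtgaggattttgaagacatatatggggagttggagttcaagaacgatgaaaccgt
SLC8A3, second probe, chr10:84037102-84037161: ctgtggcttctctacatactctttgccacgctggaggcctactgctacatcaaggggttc
SLC16A7, first probe, chr5:57948944-57949003: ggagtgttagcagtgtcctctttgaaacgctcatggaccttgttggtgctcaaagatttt
SLC16A7, second probe, chr5:57943369-57943428: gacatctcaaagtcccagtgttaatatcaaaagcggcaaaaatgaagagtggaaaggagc
SLC16A3, chr19:52033503-52033839: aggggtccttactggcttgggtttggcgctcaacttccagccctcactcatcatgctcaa

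The first question was whether the stressed cows differed in the transcripts of these SLC genes. The carriers left out by name include those that the study reported as changed by stress. They were SLC16A6 in both muscles, SLC25A25 and SLC2A3 in LT, and SLC2A8 in ST, so the counts below do not cover them. None of the 29 SLC genes tested in LT and none of the 26 tested in ST was called for stress by limma, where a call needs an adjusted p under 0.1 in at least 80% of the probes of a gene, while 3.73% of all transcripts tested were called in LT (2.20% higher and 1.53% lower) and 3.60% in ST (1.48% higher and 2.12% lower). At an unadjusted p under 0.05 there were 5 SLC genes in LT and 1 in ST, that is 17.2% and 3.85% of those tested, where 13.6% and 12.9% of all transcripts passed. These counts rested in part on cow321. Without it only SLC16A5 (limma p = 0.0364) and SLC35B1 (p = 0.0267) stayed under 0.05 in LT. SLC27A1 (p = 0.0565), SLC31A2 (p = 0.0567) and SLC27A5 (p = 0.0632) did not, nor did SLC27A5 in ST (p = 0.0836). The share of all transcripts without this cow is not given. The smallest adjusted p was 0.22 in LT and 0.267 in ST. The median log2 difference of the SLC genes was -0.09 in LT and -0.06 in ST, beside -0.05 and -0.06 over all transcripts tested, of which 65.2% and 69.8% were below 0. Of the SLC genes, 21 of 29 in LT and 18 of 26 in ST were below 0. In bulk muscle, fewer cells of a type and less RNA per cell cannot be told apart.

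The lowest value under stress in each muscle was that of a member of the SLC27 family of fatty acid transport proteins. SLC27A5, a bile acid and very long-chain fatty acid CoA ligase best known from liver, ranged in LT from -4.99 to -3.90 (median -4.26) in the 16 stressed cows and from -4.81 to -3.54 (median -4.14) in the 16 cows handled with limited stress, as log2 of the signal over the 75th percentile of the array. The groups overlapped, with 13 of 16 stressed cows below the median of the other group. The log2 difference was -0.25 (SE 0.114, adjusted p = 0.259 by limma). In ST 14 of 16 stressed cows were below the median of the cows handled with limited stress, and the difference was -0.22 (SE 0.104, adjusted p = 0.267). SLC27A5 was lower in stressed cows on 4 of 4 LT slides, by 0.04 to 0.50 as differences of slide means, and on 4 of 5 ST slides. With the slide as a block it passed the threshold in LT (-0.36, SE 0.095, adjusted p = 0.028) and with the scan day as a block too (-0.30, adjusted p = 0.076), while in ST the value was -0.14 with the slide as a block (adjusted p = 0.681). Cow321 was the lowest cow for this gene in both muscles. Without it the difference was -0.21 in LT (adjusted p = 0.387) and -0.16 in ST (adjusted p = 0.371). The fits with a block included this cow.

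SLC27A1, a long-chain fatty acid transporter of muscle and fat, ranged in LT from -0.29 to 1.38 (median 1.18) in stressed cows and up to 1.66 (median 1.30) in cows handled with limited stress. The lowest of these values belonged to cow321, and the next lowest cow stood at 0.81. The difference was -0.23 (SE 0.108, adjusted p = 0.298) with this cow and -0.14 (SE 0.069, adjusted p = 0.374) without it. In ST it was -0.12 (SE 0.093, adjusted p = 0.536). SLC27A1 was below 0 on 4 of 4 LT slides (-0.46 to -0.004) and on 5 of 5 ST slides (-0.19 to -0.05). In each muscle cow321 lay on the slide with the lowest of these values. SLC27A4 gave -0.12 in LT and 0.03 in ST, and SLC27A3 gave -0.01 and -0.12, all under 1.5 standard errors. The 3 fat cell markers tested (ADIPOQ, FABP4 and SCD) had the same sign as SLC27A5 and SLC27A1, with -0.23 to -0.38 in LT and -0.39 to -0.75 in ST and none called, and their part in these values was not tested. LEP, also a marker of fat cells, was above background on 1 LT and 2 ST arrays. The summed level of the fat cell probes ranged in LT from 2.34 to 15.0 times the 75th percentile in stressed cows and from 2.52 to 15.5 in cows handled with limited stress, and in ST from 2.70 to 21.1 and from 4.68 to 26.1.

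The SLC16 family is known for carriers of lactate and other monocarboxylates. SLC16A5, a monocarboxylate transporter (MCT6) whose substrates are less well known, had the smallest p in LT: the stressed cows ranged from -4.18 to -2.86 (median -3.23), and the cows handled with limited stress from -3.27 to -2.77 (median -2.98). The difference was -0.22 (SE 0.092, 95% interval -0.41 to -0.03, adjusted p = 0.22), with 12 of 16 stressed cows below the median of the other group and 4 of 4 slides below 0. The lowest value was again that of cow321, without which the difference was -0.16 (adjusted p = 0.314). In ST SLC16A5 gave -0.08 (SE 0.083, adjusted p = 0.68), with 9 of 16 stressed cows below the median of the other group and 3 of 5 slides below 0. The custom set of SLC16A5 gave -0.23 in LT and was not called either. SLC16A3 (MCT4), known for lactate export from fast fibres, gave -0.10 in LT (95% interval -0.44 to 0.23) and -0.03 in ST (-0.27 to 0.22). SLC16A7 (MCT2), a high-affinity carrier of lactate and pyruvate, gave 0.08 (-0.55 to 0.71) and -0.03 (-0.74 to 0.68), intervals that allow changes beyond 1.5-fold in either direction.

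Outside these families the smallest p values in LT belonged to carriers of internal membranes. SLC35B1, a carrier of nucleotides of the endoplasmic reticulum, ranged from -0.14 to 0.29 (median 0.08) in stressed cows and from 0.01 to 0.41 (median 0.19) in cows handled with limited stress. The difference of -0.12 (SE 0.052, adjusted p = 0.238) was small, with 13 of 16 stressed cows below the median of the other group. In ST it was -0.08 (SE 0.057, adjusted p = 0.496). SLC31A2, a copper transporter of endosomes and lysosomes, gave -0.21 in LT (SE 0.091, adjusted p = 0.254) and -0.16 in ST (SE 0.082, adjusted p = 0.332). Its lowest LT value was that of cow321, without which the LT difference was -0.18 (adjusted p = 0.374). Both genes were below 0 on 4 of 4 LT slides, and in ST SLC35B1 was so on 4 of 5 slides and SLC31A2 on 3 of 5. SLC35D1, a carrier of nucleotide sugars tested in LT only and above background on 11 arrays there, gave -0.23 (SE 0.186), and from -0.31 to -0.14 with single cows left out.

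Of the 7 mitochondrial carriers tested, none passed either. SLC25A5, an ADP/ATP exchanger of many tissues, gave 0.03 in LT and 0.18 in ST (SE 0.103, adjusted p = 0.377), and 0.12 in ST without cow321. SLC25A11, which exchanges oxoglutarate for malate, gave -0.05 and 0.03, and SLC25A12, the aspartate and glutamate carrier of the malate-aspartate shuttle, 0.01 and 0.05. SLC25A24, which exchanges ATP-Mg for phosphate, gave 0.14 in LT, above 0 on 4 of 4 slides (adjusted p = 0.454). In ST it gave -0.01, with 4 of 5 slides below 0. SLC25A29, a carrier of basic amino acids, gave -0.16 and -0.17, with 12 and 13 of 16 stressed cows below the median of the other group. SLC25A1, the citrate carrier, gave -0.14 and -0.08.

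Of the remaining carriers, SLC8A3, a sodium/calcium exchanger of muscle and brain, gave -0.12 in LT and -0.07 in ST, and -0.02 and 0.02 without cow321. The ST value is the mean of 2 probes of opposite sign, 0.08 for the first and -0.22 for the second. Its 3 custom sets gave -0.23 to -0.28 in ST and -0.07 to -0.001 in LT, with none called. SLC1A5, a glutamine transporter of the cell membrane, gave -0.11 (95% interval -0.59 to 0.38) and -0.08 (-0.67 to 0.51). SLC29A1, an equilibrative nucleoside transporter, gave -0.02 (-0.20 to 0.15) and -0.06 (-0.25 to 0.14). SLC13A2, a sodium-coupled citrate and dicarboxylate carrier, gave -0.19 in LT and -0.16 in ST. The ST value depended on single cows, with -0.35 without stressed cow303, which stood at -4.64, and -0.09 without cow330. The 95% interval of the stress difference lay within 1.5-fold in either direction for 24 of 29 genes in LT and 22 of 26 in ST, so for these genes a larger difference is outside the interval, and for the others it is not. The direction of small values depended on the scaling: scaling to the median of the control features moved the median over all transcripts to -0.23 in LT and 0.03 in ST, and without scaling it was -0.02 and 0.09. Among the named genes, 7 in LT and 17 in ST took the other sign under at least 1 alternative.

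**Figure D2:**
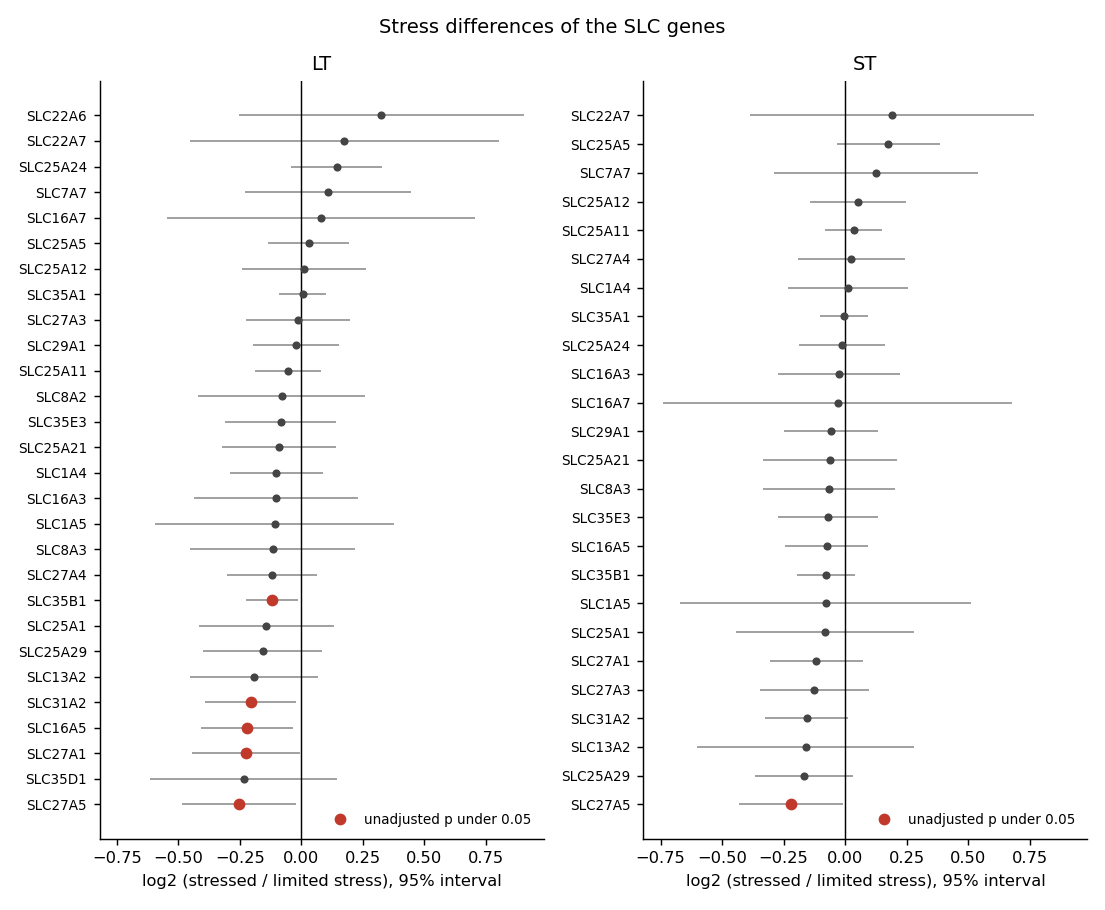
Log2 difference of stressed minus limited stress cows (x axis, points, with 95% intervals as lines) for the SLC genes reported here that were tested in LT (left) and in ST (right), ordered by value. Large red points mark an unadjusted p under 0.05 with all cows included (5 genes in LT, SLC27A5 in ST). None of these passed the adjustment, and under another scaling the sign of small values can change.

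**Figure D3:**
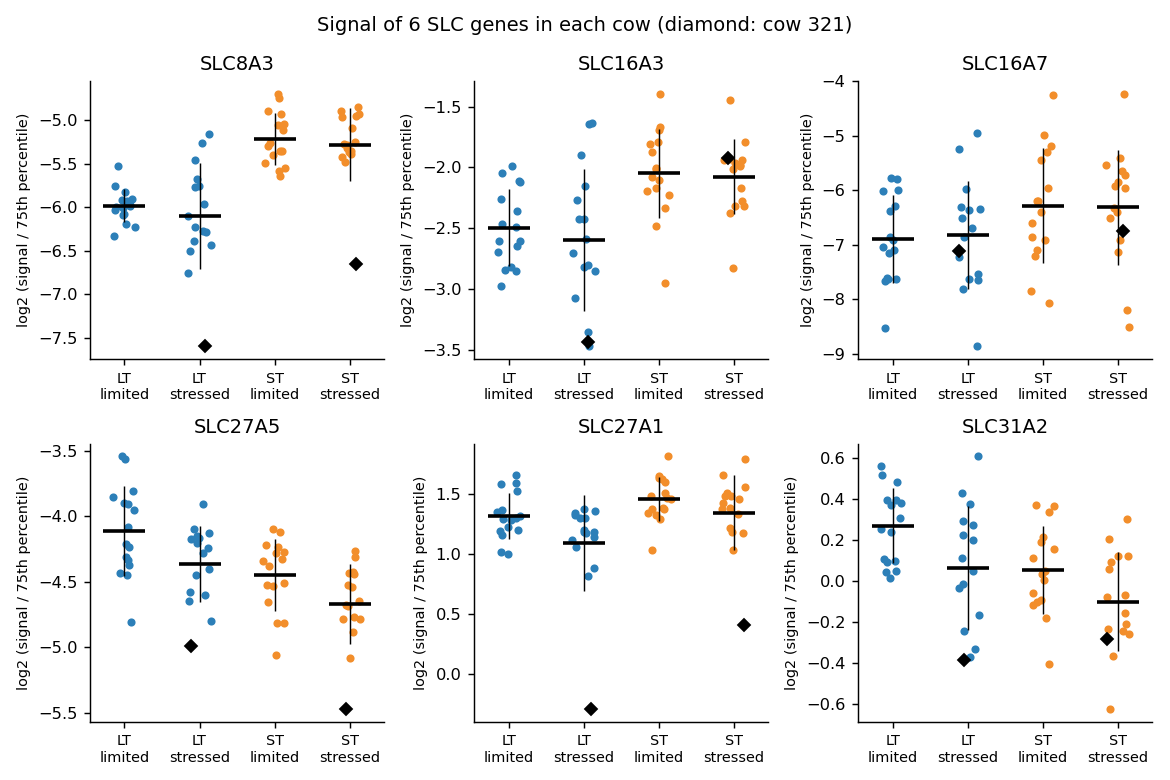
Signal of 6 SLC genes in each cow (y axis, log2 of the signal over the 75th percentile of the array), by muscle and stress group, 1 point per cow, with the group mean and SD and with cow321 as a diamond. The stress groups overlap in every panel, and for SLC27A1 the diamond lies at -0.29 in LT and 0.41 in ST, below all other cows.

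The genes that work beside the carriers were listed by their known role. Of the sodium pump, which maintains the gradient that many SLC proteins draw on, 4 of 9 listed genes were tested and none was called for stress in either muscle. Of 12 listed partners and porins 3 were tested (VDAC1, VDAC2 and CA2) and none was called. None of the 6 kinases and ligases of ion cotransport and none of the 8 genes of the amino acid response that were listed was among the named probes.

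The stress difference was then compared between the muscles. No SLC gene of the 26 tested in both was called for a muscle by stress interaction, the smallest adjusted p was 0.999 and none had an unadjusted p under 0.05; of all transcripts 0% were called. The smallest p values were those of SLC25A24 (0.16, stress difference in LT minus that in ST, and 0.09 without cow301), SLC16A5 (-0.15) and SLC25A5 (-0.15, and -0.09 without cow299).

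For the EP diet, no SLC gene was called in LT or ST, and neither was any other transcript (0% called). SLC25A1, which supplies citrate for fatty acid synthesis, had the smallest p in LT: it ranged from -2.26 to -0.63 (median -1.50) in cows given the EP diet and from -2.82 to -1.36 (median -1.65) in the others. The groups overlapped, and the difference of 0.33 (SE 0.134, unadjusted p = 0.0184) had an adjusted p of 0.979. In ST it was 0.26 (adjusted p = 0.949). The 3 fat cell markers were above 0 in the same comparison, by 0.27 to 0.66 in LT and 0.32 to 1.44 in ST with none called, and their part was not tested. SLC35A1, the carrier of CMP-sialic acid, followed in LT (-0.11, adjusted p = 0.979).

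In ST the smallest p for diet was that of SLC13A2 (0.48, SE 0.217, adjusted p = 0.889), whose levels on the EP diet ranged from -8.25 to -4.64 with a median of -7.54, so that a single cow (cow303) stood far above the rest, and without it the difference was 0.30. SLC16A7 gave the largest diet value, 0.71 in ST (SE 0.347, 95% interval 0.00 to 1.41, adjusted p = 0.949) and 0.40 in LT, with medians in ST of -6.06 with the EP diet and -6.67 without it. SLC35A1 gave -0.09 in ST (adjusted p = 0.949). The stress by diet interaction was called for no SLC gene and no transcript in either muscle (0% called). In LT the smallest p belonged to SLC22A6, an organic anion transporter best known from kidney (1.26, SE 0.566, adjusted p = 1) that was above background on 15 LT arrays. Stressed cow251, given the EP diet, stood at -4.21 where the median of all cows was -7.98, and without it the SLC22A6 interaction was 0.82. Next came SLC25A1 (0.53) and SLC35A1 (-0.18). In ST the smallest p belonged to SLC35E3 (0.39), an orphan member of the nucleotide sugar carrier family, followed by SLC25A11 (-0.21) and SLC13A2 (0.77, and 0.39 without cow303), with an adjusted p of 0.969 for all 3.

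The muscles were compared over the same 32 cows, in a fit that treats the 64 arrays as independent. The adjusted p values of this comparison are therefore not paired by cow, while the counts of cows given beside them are. Of the 26 SLC genes tested in both, 14 (53.8%) were called between LT and ST, a share near the 51.7% of all transcripts tested. There were 5 (19.2%) higher and 9 (34.6%) lower in LT, beside 21.9% and 29.9% of all transcripts, and this split depended on the scaling: it was 7 higher and 1 lower with the control features as scaling, and 9 and 4 without scaling, which moved the median over all transcripts from -0.03 to 0.15 and 0.09. Muscle and set of slides cannot be told apart here; with the slide as a random block 12 genes were called.

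SLC8A3 differed most. Its level, the mean of its 2 probes, ranged from -7.60 to -5.15 (median -6.00) in LT and from -6.65 to -4.69 (median -5.28) in ST. The ranges overlapped across cows, but within a cow the ST value was higher in 29 of 32. The log2 difference was -0.80 (SE 0.107, adjusted p = 2.18e-06), that is 0.575 of the ST level in LT. Without cow321, the lowest cow in both muscles, it was -0.79. It was called under each of the 3 scalings (-0.61 with the control features, -0.67 without scaling), but was -0.34 after normexp background correction with an offset of 50 units, which compresses dim probes. The 3 custom sets of SLC8A3 were all called lower in LT, with -0.57 to -0.66. The custom set of its relative SLC8A2, for which the named probe was above background on only 11 LT and 9 ST arrays, was also called lower in LT (-0.54), and SLC8A1, the exchanger best known from heart, was not above the filter in either muscle.

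The SLC16 genes described here were lower in LT. SLC16A3 ranged from -3.47 to -1.63 (median -2.60) in LT and from -2.95 to -1.39 (median -2.01) in ST, and 26 of 32 cows were higher in ST. Its difference was -0.48 (SE 0.103, adjusted p = 7.56e-05), and -0.30 with the control features as scaling (adjusted p = 0.147). SLC16A5 was lower in LT by 0.30 on the log2 scale (SE 0.062, adjusted p = 4.17e-05, 27 of 32 cows), as was its custom set (-0.28), but not called with the control features (-0.12). SLC16A7 was lower in LT by 0.56 (SE 0.236, adjusted p = 0.056, 21 of 32 cows), and it lost its call with the slide as a block (-0.56, adjusted p = 0.185), with the control features (-0.37) and without scaling (-0.43). SLC13A2 gave -0.13 and was not called (adjusted p = 0.412).

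Within the SLC27 family SLC27A5 was higher in LT, with a median of -4.22 against -4.52 in ST (difference 0.32, SE 0.078, adjusted p = 0.000411, 25 of 32 cows). SLC27A1 was lower in LT, with a median of 1.25 against 1.44 and 29 of 32 cows lower (-0.20, SE 0.072, adjusted p = 0.018), but it was not called with the control features (-0.01), without scaling (-0.07) or with the slide as a block (-0.19, adjusted p = 0.113). SLC27A3 (0.12) and SLC27A4 (-0.12) were not called, but both were with the cow as a replicate block.

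Among the mitochondrial carriers 2 were higher and 1 lower in LT. SLC25A5 was higher in LT in 26 of 32 cows (0.26, SE 0.066, adjusted p = 0.000839), as was its custom set (0.28). SLC25A11 was higher in 29 of 32 cows by a small amount (0.13, SE 0.043, adjusted p = 0.00844), and its custom set was not called (0.09). SLC25A24 was lower in LT (-0.19, SE 0.063, adjusted p = 0.00901) and stood at 0.01 with the control features. SLC25A12 gave -0.01 and SLC25A1 0.13, neither called. SLC31A2 was higher in LT in 28 of 32 cows (0.19, SE 0.061, adjusted p = 0.00781). SLC25A5, SLC25A11, SLC27A5 and SLC31A2 were higher in LT and called under all 3 scalings.

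SLC35B1 was lower in LT in 29 of 32 cows (-0.20, SE 0.037, adjusted p = 1e-05), with -0.01 under the control features. SLC35E3 was lower in 28 of 32 (-0.30, SE 0.075, adjusted p = 0.000605), with -0.11 under the control features. The neutral amino acid transporter SLC1A4 was lower in 24 of 32 (-0.26, SE 0.076, adjusted p = 0.00325), with -0.08. SLC1A5 (-0.01), SLC29A1 (0.06) and SLC35A1 (0.00) were not called. The labelled muscles also differed in fibre markers. Of 6 slow fibre markers 4 were higher and 1 lower in LT (median 0.51). All 5 fast fibre markers were lower (-0.13 to -0.17), as were the 6 skeletal muscle markers (-0.12 to -0.33). Marker values are not given under the control features, a scaling that moved SLC35B1 from -0.20 to -0.01. The direction of marker differences of about that size or smaller may therefore depend on the scaling. The part of fibre type in the SLC differences was not tested.

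**Figure D4:**
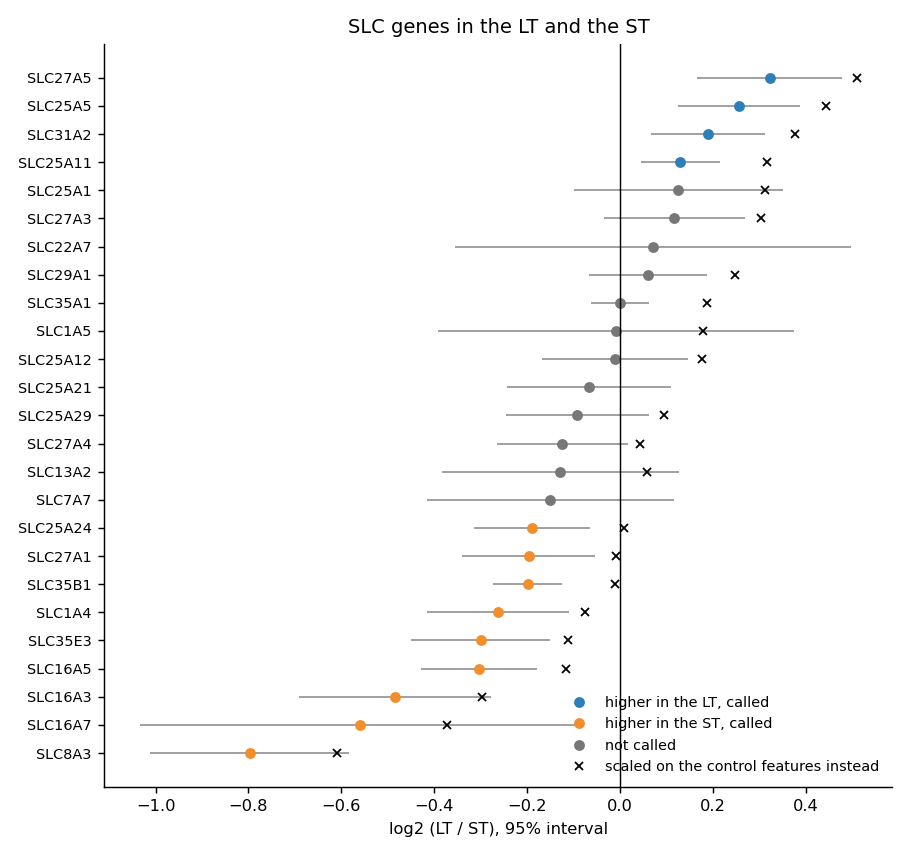
Log2 difference of LT minus ST (x axis, points, with 95% intervals as lines) for the SLC genes reported here that were tested in both muscles, ordered by value and with the called genes coloured; crosses give, for the named genes, the value with the control features as scaling. SLC8A3 lies lowest at -0.80 and SLC27A5 highest at 0.32 among the genes shown; the crosses lie to the right of the points, and for SLC25A24 and several genes that were not called they are on the other side of 0.

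As both muscles came from the same cow, the level of each SLC gene in LT was set against its level in ST over the cows. Pearson's r had an adjusted p under 0.05 for 20 of the 26 genes (permutation test, 100000 permutations, two-sided, smallest p they can give 1e-05, adjusted over the 26), and Spearman's rho for 18. The median r was 0.53, beside 0.43 over the 4230 transcripts tested in both muscles. The share of all transcripts that pass this test is not given, so the counts cannot be read as particular to the SLC genes. After removing the group and slide means the median was 0.55 and 17 genes passed, and without cow321 it was 0.44 with 15 genes, beside 0.38 over all transcripts.

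SLC31A2 had the highest r, 0.77 (rho 0.76, permutation p = 1e-05 for both). It was 0.71 without the 2 cows farthest from the median in LT, 0.81 after group and slide were removed, and 0.71 and 0.84 within the stressed and the other cows, so the level of this copper transporter differed between cows in the same way in both muscles. SLC25A12 followed with r = 0.72 (rho 0.64, permutation p = 1e-05 and 0.00013), and 0.64 without the 2 farthest cows and also without cow321. SLC27A3 gave 0.71 (rho 0.69), 0.60 without the 2 farthest cows. SLC25A11 (0.65, rho 0.56), SLC1A5 (0.63, rho 0.62) and SLC35B1 (0.61, rho 0.59) each kept an r of 0.61 or more without cow321. For SLC1A5 the cows spanned -5.73 to -3.23 in LT and -6.34 to -2.97 in ST.

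SLC27A1 had a similar r of 0.71, but a rho of 0.48, and r fell to 0.34 without cow321 (permutation p = 0.0637, adjusted 0.092), so its r rested on that cow. SLC8A3 went from 0.43 (rho 0.09) to -0.04 without it. The other genes that no longer passed were SLC25A1 (0.36), SLC16A5 (0.36) and SLC27A4 (0.29).

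SLC16A7 was the reverse case. Its 2 probes followed each other closely, with a correlation over the 32 cows of 0.89 in LT and 0.98 in ST, and the level ranged from -8.86 to -4.95 in LT and from -8.50 to -4.23 in ST. These are among the widest ranges of the SLC genes, yet the LT and ST levels of a cow correlated by 0.14 (rho 0.15, permutation p = 0.434 and 0.41). The difference of LT and ST within a cow ran from -2.54 to 2.53. SLC13A2 (0.09), SLC25A24 (0.10), SLC27A5 (0.15) and SLC7A7 (0.17), a light chain of cationic amino acid transport, did not pass either. For SLC7A7 the 2 probes correlated with each other by only 0.05 in LT and 0.35 in ST, so that its mean level is uncertain, whereas those of SLC8A3 correlated by 0.79 and 0.68 and those of SLC1A4 by 0.71 and 0.84.

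**Figure D5:**
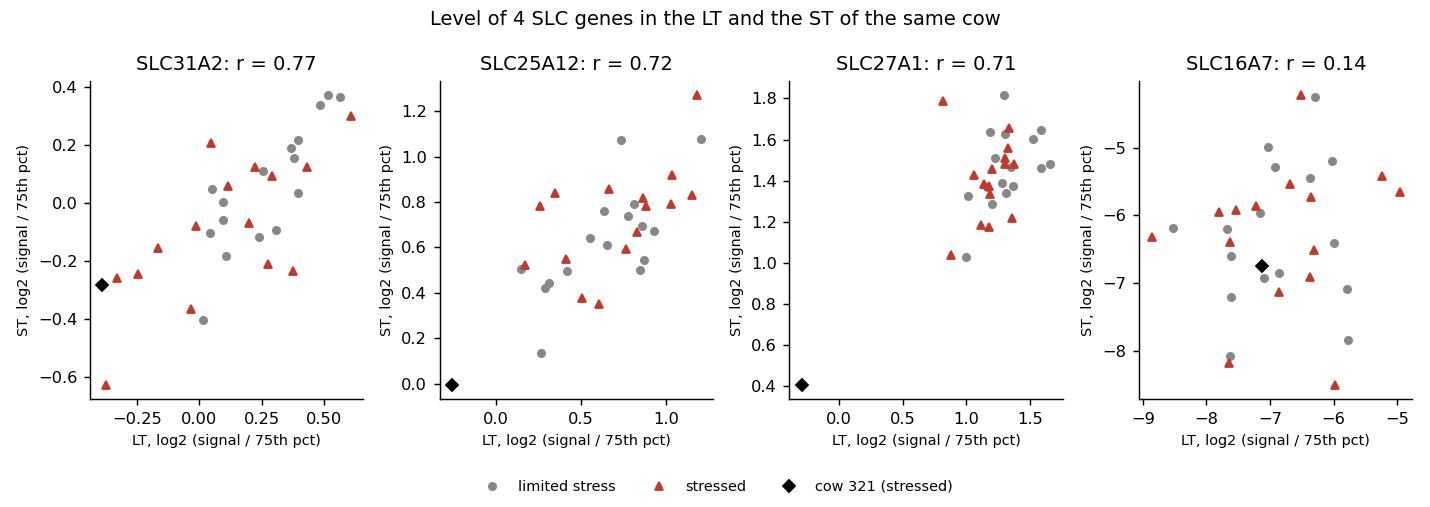
Level in LT (x axis) against level in ST (y axis) of the same cow, each as log2 of the signal over the 75th percentile of the array, for 4 SLC genes, 1 point per cow and cow321 as a diamond. SLC31A2 and SLC25A12 follow a line, SLC27A1 does so mainly through the diamond, and SLC16A7 is scattered (r = 0.14).

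Cow321 was the lowest of the 32 cows for 10 of the 29 SLC genes tested in LT and for 6 of the 26 in ST, and the highest for 2 and 3. SLC8A3, SLC25A1, SLC25A12, SLC27A1, SLC27A3 and SLC27A5 were lowest in this cow in both muscles. SLC8A3 stood at -7.60 in LT, where the other cows began at -6.76, and at -6.65 in ST, where they began at -5.64. SLC25A1 was 1.31 below the median of the other cows in LT and 1.74 below it in ST. SLC25A5, in contrast, was highest in this cow in both muscles, 0.60 and 0.91 above the median of the others. Of the 6 skeletal muscle markers, CKM was lowest in this cow in both muscles, and MYH7 in ST (rank 3 in LT). DES, in contrast, ranked 29 of 32 from the lowest in LT and 20 in ST. ACTA1, MB and MYH1 ranked 10, 6 and 10 in LT and 2, 2 and 4 in ST. Why this cow stood apart was not tested. Without it no SLC gene was called for stress either, while 147 transcripts in LT and 139 in ST were, against 161 and 153 with it.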

How the data were processed

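The authors read the arrays with Agilent Feature Extraction. According to the headers, the intensities they deposited had background subtraction and detrending, with surrogate values near background, and no scaling between arrays or log2 transformation. The deposited value table held the same intensities (largest relative difference 0). Here log2 of the processed signal minus that of the 75th percentile of the array was used, in place of the scaling to control probes in the study's methods: the files mark 536 of 13950 features as controls. Spots of a probe were averaged, and probes read well above background by 11 or more of the 32 arrays in a muscle were tested with limma 3.58.1 (R 4.3.3) and Benjamini-Hochberg adjustment over all probes, 10441 in LT, 10305 in ST and 10254 between the muscles. To be called, a gene needed an adjusted p under 0.1, with the same sign, for 80% or more of the probes tested. Its value is the mean of its tested probes and its p the largest among all of them. Stress, diet and their interaction were fitted on the 32 arrays of each muscle, muscle and its interaction with stress on all 64 arrays. The slaughter period in the study's model was not in the labels and was not used.

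The cow number in the labels pairs the muscles, since both came from the same animal; deviations from the group means correlated over probes by 0.10 to 0.76 (median 0.43) within a cow and by -0.02 (median) between cows. Fits with the cow, slide or scan day as a block, other scalings, filters and cows left out were run as alternatives. The genes and the gene lists were chosen with earlier results of these data known. Named were SLC genes called for stress, diet or an interaction, those with the smallest p for stress in each muscle (up to 10), for diet and for the interactions (3 each), the largest differences called between the muscles (up to 8 each way), and a list of well-studied carriers. Of the 45 names, 32 accessions were found in a RefSeq table of the assembly ARS-UCD2.0, and none had another symbol there. Counts cover all SLC genes, but the values of some genes are not reported here. Scripts were tested on simulated data. The number of arrays limits the precision of every value.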

Additional observations from a re-analysis of the deposited data

How the results depend on the processing

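The counts of called SLC genes for stress, diet and both interactions were 0 under all alternatives except 3: in LT 1 gene (SLC27A5, lower in stressed cows) was called for stress when the slide was the block and 1 when the scan day was; in ST 1 gene (SLC35D1, lower) without the filter on dim probes. Leaving out each cow in turn gave 0 to 0 for these and 14 to 15 between LT and ST. Between LT and ST the count of 14 became 8 with the control features as scaling, a setting under which SLC25A24 stood at 0.0085 in place of -0.19; SLC35A1 stood at 0.13 without scaling in place of 0.00. The other settings gave 11 to 16 calls, with 16 when the cow was a replicate block, which added SLC27A3 and SLC27A4; for stress and for the muscle by stress interaction the pairing by cow left the count at 0. A fit with both the cow and the slide as fixed blocks could not be made between the muscles, because each slide held a single muscle. Counts of genes correlated over cows were 20 (Pearson), 18 (Spearman), 17 (group and slide removed) and 15 (without cow321), the last 3 settings chosen after seeing the data. No share over all transcripts stands beside these counts. Of the values of named genes under the alternatives, 10 of 242 for stress in LT, 41 of 227 for stress in ST and 16 of 226 between the muscles had the other sign. Probes near background limit SLC22A6, SLC22A7, SLC35D1 and SLC8A2.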
